A study of Arabidopsis thaliana with 6 samples.

Results

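The heat shock proteins and heat shock factors of Arabidopsis seedlings were followed here as 38 genes chosen by identifier. They comprise 11 small heat shock proteins, HSP101, 4 HSP90, 7 HSP70, 3 BiP and 12 heat shock factor genes, out of 33557 genes in the table. All 38 were among the 23937 genes that the authors tested. The study compared the GFP-FHY1 line, which carries a GFP-FHY1 fusion driven by the constitutive 35S promoter in the fhy1-1 background, with the fhy1-1 mutant itself. Seedlings 4 days old were sampled, and the light treatment is coded in the labels as D for 4 days with FR (far-red) for 3 h; each genotype had 3 libraries. FHY1 is the shuttle protein that phytochrome A, the receptor of far-red light, needs to enter the nucleus. No wild type, no seedlings without far-red and no heat treatment are among the samples, so restored FHY1 function and an excess of FHY1 cannot be told apart, and whether the line is 1 insertion event is not stated. FHY1 was at 195.9 FPKM in the GFP-FHY1 line and 19.0 FPKM in fhy1-1, where FPKM stands for fragments scaled to transcript length and library size. Because the libraries of a genotype were combined by the authors into a single FPKM per gene, no SD can be given, and each q-value rests on the spread that the authors' test assumed.

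Heat shock proteins are molecular chaperones: they keep unfolding proteins from clumping and help them to refold. Small heat shock proteins hold unfolded clients, HSP70 and its relatives of the endoplasmic reticulum (BiP) bind and release them with ATP, HSP90 finishes signalling proteins, and HSP101 pulls aggregates apart. Heat shock factors are the transcription factors that bind repeated GAA units, the heat shock elements, in front of such genes. In plants the class A1 factors start the heat response, HSFA2 prolongs it, and class B factors act largely as repressors. The constitutive cognates (HSC70) are abundant without stress.

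Of the 16 members that were called, 12 were higher in the GFP-FHY1 line, among them HSP90 and HSP70 genes and HSFA2, and 4 were lower, 3 of them in the endoplasmic reticulum. A call means a q-value below 0.05 in the authors' deposited table. Of all tested genes, 9.92% were called higher, 12.9% lower and 22.8% in either direction, against 31.6%, 10.5% and 42.1% of the members. The median log2 fold change was 0.14 over the 37 members with both values above 0 and -0.05 over all such tested genes. By value alone, 25 members were higher and 13 lower in the GFP-FHY1 line. Few changes were large: HSP17.4, HSP70 and HSFA2 were called higher by at least 2-fold (2.12% of all tested genes) and HSP22.0 was called lower by at least 2-fold (0.476% of all tested genes). The remaining calls were smaller than 2-fold.

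The share of genes called differed with level. By the authors' deposited table, 3 of the 6 members at a mean of 100 FPKM or more were called higher and 3 lower. At that level 21.1% of all tested genes were called higher and 57.7% lower. Of the 25 members under 10 FPKM, 5 were called higher and 1 lower, against 5.65% and 3.56% of all tested genes at that level. Of the 7 members between, 4 were called higher and none lower, against 15.1% and 21.0% of tested genes there. HSC70-1, BIP1 and BIP2, 3 of the 4 members called lower, were all in the highest range.

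The deposited errors of abundant genes were small, and calls were repeated with other settings. When a spread between replicates of 10% was added to the error, 8 members were called higher (5% of tested genes) and 1 lower (2.55%). When 20% was added, HSP70 alone was called higher (2.42% of tested genes) and HSP22.0 alone lower (0.389%). Bonferroni adjustment left 8 higher (5.3% of tested genes) and 3 lower (5.26%). A pseudocount of 1 with a log2 change of at least 0.58 left 6 higher (3.5%) and 1 lower (1.07%). Centring on the median gene gave 13 higher (12.1%) and 2 lower (9.27%). A q below 0.01 left 11 higher (8.23%) and 4 lower (9.81%). All 12 and 4 calls were among the 33 members at 1 FPKM or more in either genotype, where 12.1% and 15.9% of tested genes were called, or 12.4% and 16.6% after readjustment. Without overlapping loci, 9 members were called higher (9.8%) and 4 lower (13.1%).

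**Figure D1:**
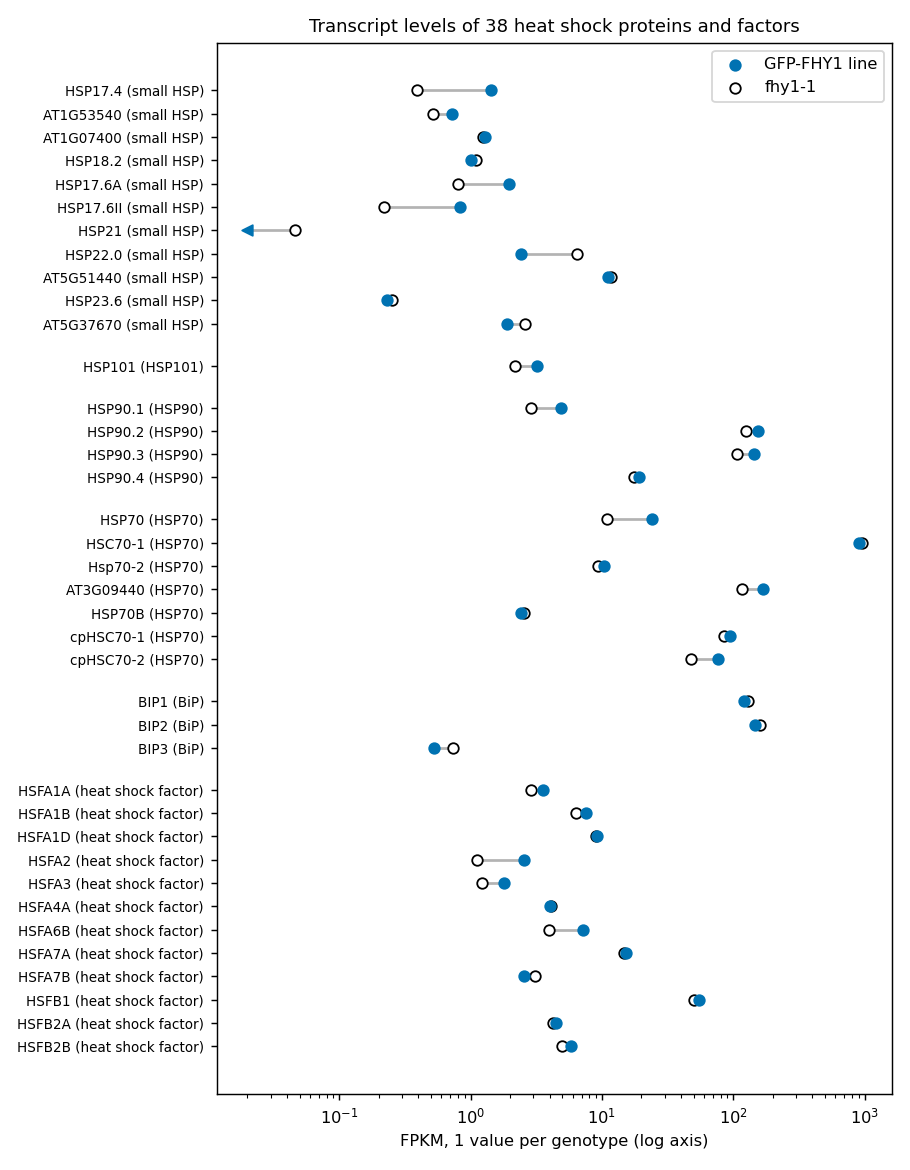
FPKM of the 38 members in the GFP-FHY1 line (filled points) and in fhy1-1 (open points) on a log axis, 1 value per genotype, ordered by class; the arrowhead marks HSP21, which was listed at 0 in the GFP-FHY1 line. Among members with both values above 0, the widest gaps are those of HSP17.4, HSP17.6II, HSP17.6A, HSP22.0, HSP70 and HSFA2. HSC70-1 stands above all others in both genotypes.

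Among the heat shock factors, 3 of 12 had a q that called them higher in the authors' deposited table and none was called lower, with a median log2 fold change of 0.19. Over all tested genes, 9.92% were called higher and 12.9% lower. Under 10 FPKM, where all factors but HSFA7A and HSFB1 lie, the shares were 5.65% and 3.56%. HSFA2, which sustains the heat response, was at 2.55 FPKM in the GFP-FHY1 line and 1.11 FPKM in fhy1-1. Its log2 fold change was 1.20 (95% interval 0.52 to 1.87), with q = 0.00329 in the authors' deposited table. HSFA6B, a class A factor known from responses to abscisic acid and heat, was at 7.22 FPKM in the GFP-FHY1 line and 3.98 FPKM in fhy1-1. It was 1.81-fold higher, with q = 5.93e-08 in the authors' deposited table. HSFB1, a class B factor and the most abundant of the 12, was at 54.6 FPKM in the GFP-FHY1 line and 49.9 FPKM in fhy1-1. Its increase of 9.50% had q = 0.00635 in the authors' deposited table, a call lost with Bonferroni adjustment and with a replicate spread of 10%; Bonferroni adjustment also ends the call of HSFA2. HSFB1 alone made up 46.1% of the summed heat shock factor FPKM in the GFP-FHY1 line and 47.3% in fhy1-1.

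None of the class A1 factors, the known starters of the heat response, was called. HSFA1A stood at 3.56 FPKM in the GFP-FHY1 line and 2.91 FPKM in fhy1-1, HSFA1B at 7.54 and 6.30 FPKM, and HSFA1D at 9.19 and 9.08 FPKM in the same order. All 3 values were higher in the GFP-FHY1 line, with q of 0.274, 0.219 and 0.944 in the authors' deposited table. HSFA1E, a class A1 factor outside the members, was at 6.77 FPKM in the GFP-FHY1 line and 6.82 FPKM in fhy1-1. HSFA3, known to act downstream of DREB2A, was at 1.80 FPKM in the GFP-FHY1 line and 1.23 FPKM in fhy1-1 (q = 0.186 in the authors' deposited table). HSFA7A was at 15.2 FPKM in the GFP-FHY1 line and 14.6 FPKM in fhy1-1, and HSFA4A at 4.05 and 4.08 FPKM. HSFA7B was at 2.55 FPKM in the GFP-FHY1 line and 3.08 FPKM in fhy1-1. The class B genes HSFB2A and HSFB2B stood at 4.43 and 5.82 FPKM in the GFP-FHY1 line and at 4.22 and 4.92 FPKM in fhy1-1. None of these 5 was called. HSFB2B had an interval from 0.01 to 0.47 on the log2 scale but q = 0.142 in the authors' deposited table. HSFA1B and HSFB2B overlap another gene in the table, and HSFB2B shares 18.6% of its 50-base windows with other transcripts. Without a stated strand the reads of such genes may be mixed.

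Most small heat shock proteins were lowly expressed, and HSP17.4 and HSP22.0 moved in opposite directions. By the authors' deposited table, 1 of the 11 was called higher and 1 lower (9.09% each), near the shares of all tested genes. Their summed level was 22.9 FPKM in the GFP-FHY1 line and 25.3 FPKM in fhy1-1. HSP17.4, a class I protein of the cytosol also found in maturing seeds, was at 1.43 FPKM in the GFP-FHY1 line and 0.393 FPKM in fhy1-1. It was 3.63-fold higher, with a log2 interval from 0.61 to 3.11 and q = 0.0179 in the authors' deposited table. The call is lost at q below 0.01, with Bonferroni adjustment and with a 10% replicate spread. The locus of HSP17.4 in the table also covers AT3G46220 (8.50 FPKM in the GFP-FHY1 line, 8.58 FPKM in fhy1-1, not called). In the RefSeq annotation an antisense RNA, AT3G07365, shares 59.9% of the 50-base windows of the HSP17.4 transcript, so its value is uncertain.

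The class II genes of the cytosol had large folds at low levels. HSP17.6II was at 0.826 FPKM in the GFP-FHY1 line and 0.220 FPKM in fhy1-1, and HSP17.6A at 1.95 FPKM in the GFP-FHY1 line and 0.804 FPKM in fhy1-1. Neither was called, with q of 0.123 and 0.0667 in the authors' deposited table, although their log2 intervals, 0.14 to 3.67 and 0.24 to 2.31, lay above 0. These genes lie side by side on chromosome 5 with 845 bases between them. HSP18.2, a class I protein, was at 1.01 FPKM in the GFP-FHY1 line and 1.09 FPKM in fhy1-1.

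In the organelles, HSP22.0, a small heat shock protein of the endoplasmic reticulum, was at 2.44 FPKM in the GFP-FHY1 line and 6.49 FPKM in fhy1-1. It was 2.67-fold lower, with a log2 interval from -1.88 to -0.95 and q = 2.71e-08 in the authors' deposited table, the largest decrease among the 37 members with both values above 0. The chloroplast protein HSP21 was listed at 0 FPKM in the GFP-FHY1 line and 0.0458 FPKM in fhy1-1, and mitochondrial HSP23.6 was at 0.231 and 0.250 FPKM in the same order. Of the 4 members annotated only as HSP20-like chaperones, AT5G51440 was the most abundant, with 11.1 FPKM in the GFP-FHY1 line and 11.7 FPKM in fhy1-1. AT5G37670 was at 1.90 FPKM in the GFP-FHY1 line and 2.59 FPKM in fhy1-1. AT1G07400 was at 1.29 and 1.25 FPKM, and AT1G53540 at 0.727 and 0.518 FPKM, the GFP-FHY1 line first. None of the 4 was called.

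Small heat shock proteins are also made late in seed development, and seed transcripts differed between the genotypes. Of 13 seed reserve and maturation markers, 12 were called lower in the authors' deposited table and none higher, where 12.9% of all tested genes were called lower. Their summed level was 49.97 FPKM in the GFP-FHY1 line and 163.8 FPKM in fhy1-1. SESA5, a seed albumin, was at 4.95 FPKM in the GFP-FHY1 line and 39.8 FPKM in fhy1-1, the cruciferin CRA1 at 6.09 and 32.5 FPKM, PAP85 at 0.945 and 4.14 FPKM, and SESA4 at 0.554 and 1.85 FPKM. The seed-specific factor HSFA9 was near 0 in both, with 0.0696 FPKM in the GFP-FHY1 line and 0.103 FPKM in fhy1-1. Of 4 root markers, GL2, RHS19 and PHT1;1 were called lower by 1.41-fold to 1.48-fold and none higher, with a summed level of 92.6 FPKM in the GFP-FHY1 line and 126.8 FPKM in fhy1-1. In bulk seedling RNA, fewer cells of a type and less RNA per cell cannot be told apart. The part of seed or root transcripts in the values of the members was not tested.

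HSP101 and 3 of the 4 HSP90 genes of the cytosol were called higher in the GFP-FHY1 line. By comparison, 9.92% of all tested genes were called higher, and 21.1% at a mean of 100 FPKM or more, the range of HSP90.2 and HSP90.3. HSP101, the disaggregase required for acquired heat tolerance, was at 3.20 FPKM in the GFP-FHY1 line and 2.19 FPKM in fhy1-1, 1.46-fold higher (q = 3.83e-04 in the authors' deposited table). Its locus overlaps AT1G74300, which was at 4.17 FPKM in the GFP-FHY1 line and 3.89 FPKM in fhy1-1 and was not called. The call for HSP101 is lost with Bonferroni adjustment. No HSP90 gene was called lower. HSP90.1, the heat-inducible copy, was at 4.86 FPKM in the GFP-FHY1 line and 2.90 FPKM in fhy1-1 (log2 fold change 0.75, interval 0.49 to 1.00). HSP90.3 was at 144.9 FPKM in the GFP-FHY1 line and 106.6 FPKM in fhy1-1, and HSP90.2 at 154.4 and 125.5 FPKM. HSP90.4 was at 19.1 FPKM in the GFP-FHY1 line and 17.64 FPKM in fhy1-1 (q = 0.180 in the authors' deposited table). Summed over the 4, the level was 323.3 FPKM in the GFP-FHY1 line and 252.7 FPKM in fhy1-1, 1.28-fold higher. HSP90.2, HSP90.3 and HSP90.4 are neighbours on chromosome 5 and share 18.8%, 23.9% and 18.7% of their 50-base windows with other transcripts, so the split of reads among them is uncertain. With a replicate spread of 10%, HSP90.2 is no longer called, and with centring on the median gene HSP90.4 is.

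Of the 7 HSP70 genes, 4 were called higher and 1 lower by the authors' deposited table. Over all tested genes, 9.92% were called higher and 12.9% lower. The shares were 21.1% and 57.7% at a mean of 100 FPKM or more, the range of AT3G09440 and HSC70-1. HSP70, the heat-inducible gene of the cytosol, was at 24.2 FPKM in the GFP-FHY1 line and 11.0 FPKM in fhy1-1. Its log2 fold change of 1.14 had an interval of 1.01 to 1.27, which remained above 0 (0.66 to 1.62) with a replicate spread of 20% added. AT3G09440, an HSP70 family gene, was at 169.2 FPKM in the GFP-FHY1 line and 116.2 FPKM in fhy1-1, 1.46-fold higher. Its q, like that of HSP70, was listed as 0 in the authors' deposited table. AT3G09440 shares 16.5% of its 50-base windows with other transcripts, nearly all of them with AT3G09430, so its value is less certain. HSC70-1, the main constitutive HSP70, was at 908.4 FPKM in the GFP-FHY1 line and 950.4 FPKM in fhy1-1. This difference of -4.41% was called lower with q = 1.18e-11 in the authors' deposited table. It is lost with centring on the median gene or a replicate spread of 10%, and its implied error was only 0.0091 on the log2 scale.

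HSC70-1 was a smaller part of the family in the GFP-FHY1 line. It made up 70.7% of the summed FPKM of the 7 HSP70 genes in the GFP-FHY1 line and 77.8% in fhy1-1. Summed, they stood at 1285 FPKM in the GFP-FHY1 line and 1222 FPKM in fhy1-1. Hsp70-2, which lies next to HSC70-1 on chromosome 5, was at 10.3 FPKM in the GFP-FHY1 line and 9.31 FPKM in fhy1-1, and HSP70B was at 2.43 and 2.57 FPKM. Neither was called. No 50-base window of HSP70, HSC70-1, Hsp70-2 or HSP70B was shared with another transcript.

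By the q-values of the authors' deposited table, both chloroplast HSP70 genes, whose products fold and import proteins in the stroma, were called higher. At a mean of 10 to 100 FPKM, the range of both, 15.1% of tested genes were called higher. cpHSC70-2 was at 76.0 FPKM in the GFP-FHY1 line and 47.8 FPKM in fhy1-1, a log2 fold change of 0.67 (interval 0.60 to 0.74). cpHSC70-1 was at 93.9 FPKM in the GFP-FHY1 line and 84.9 FPKM in fhy1-1, a log2 fold change of 0.14 (interval 0.09 to 0.20). The intervals of this pair did not overlap, and the difference itself was not tested. With a replicate spread of 20% added, the intervals were 0.20 to 1.14 for cpHSC70-2 and -0.32 to 0.61 for cpHSC70-1 and did overlap. The call for cpHSC70-1 is lost with a spread of 10%. The cpHSC70-2 locus also covers AT5G49920, which was at 0.259 FPKM in the GFP-FHY1 line and 0.159 FPKM in fhy1-1.

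Of the 3 BiP genes, the HSP70s of the endoplasmic reticulum, BIP1 and BIP2 were called lower in the GFP-FHY1 line by small amounts and none was called higher. Over all tested genes 12.9% were called lower, but 57.7% at a mean of 100 FPKM or more, where BIP1 and BIP2 lie. BIP2 was at 147.3 FPKM in the GFP-FHY1 line and 160.6 FPKM in fhy1-1, and BIP1 at 121.6 and 129.6 FPKM. The differences of -8.26% and -6.21% were called with q = 1.57e-08 and 4.22e-04 in the authors' deposited table. BIP3, the copy known to be induced by unfolded proteins, was at 0.526 FPKM in the GFP-FHY1 line and 0.737 FPKM in fhy1-1 and was not called. BIP1 and BIP2 share 22.9% and 24.8% of their 50-base windows, so their reads may be divided between them. The 3 genes summed to 269.4 FPKM in the GFP-FHY1 line and 290.9 FPKM in fhy1-1. The calls for BIP1 and BIP2 are lost with a replicate spread of 10%, and that for BIP1 also with Bonferroni adjustment and with centring on the median gene.

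**Figure D2:**
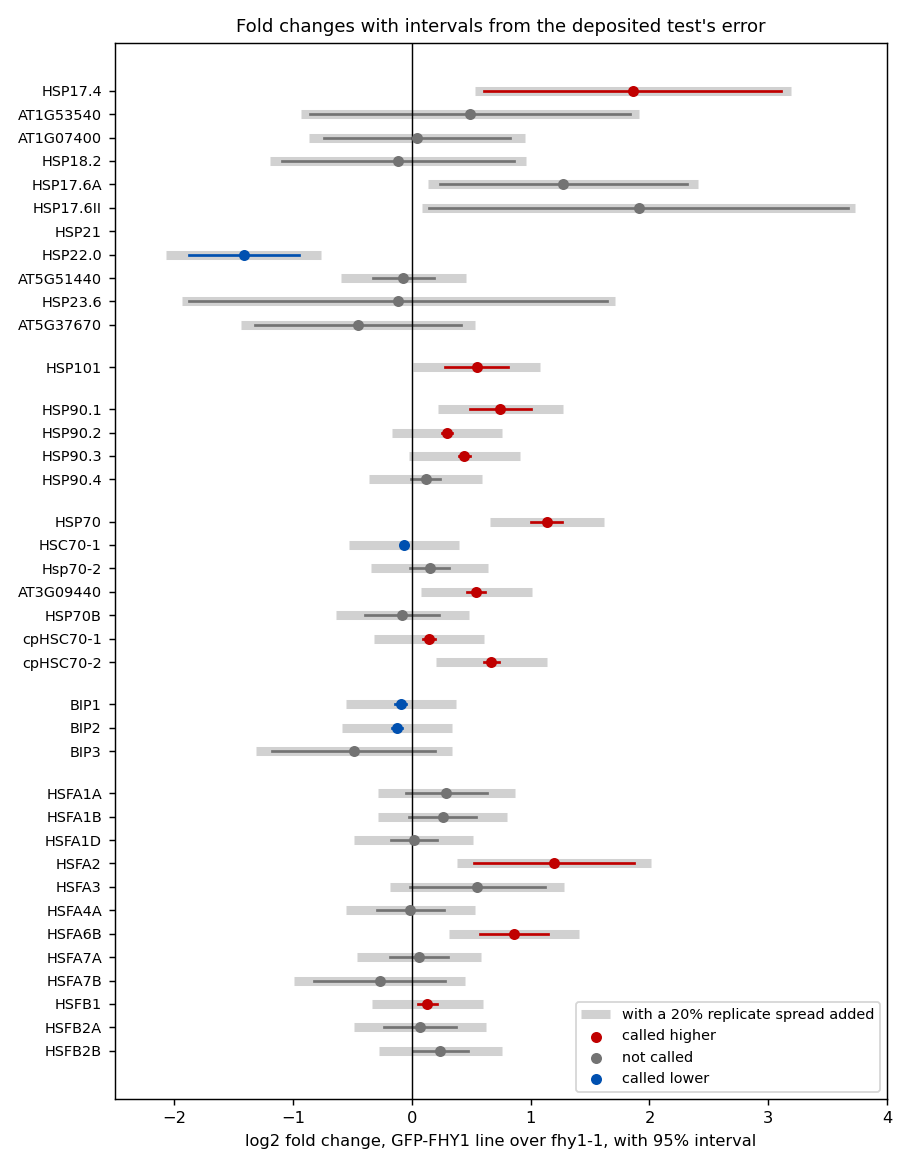
Log2 fold change of the GFP-FHY1 line over fhy1-1 for 37 members (points), with the 95% interval from the error of the authors' test (thin lines) and the wider interval for an extra 20% between replicates (grey bars); colour gives the call at q below 0.05. HSP70 (1.01 to 1.27) and HSP22.0 (-1.88 to -0.95) lie away from 0, the intervals of HSC70-1, BIP1 and BIP2 are narrow and close to 0, and HSP21 has no fold because it was listed at 0 in the GFP-FHY1 line.

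The members spanned almost the whole range of expression among tested genes. The mean FPKM of HSC70-1 was at the 99.7th percentile of tested genes, that of HSP70 at the 71.6th, that of HSP22.0 at the 40.5th and that of HSP17.4 at the 19.4th.

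**Figure D3:**
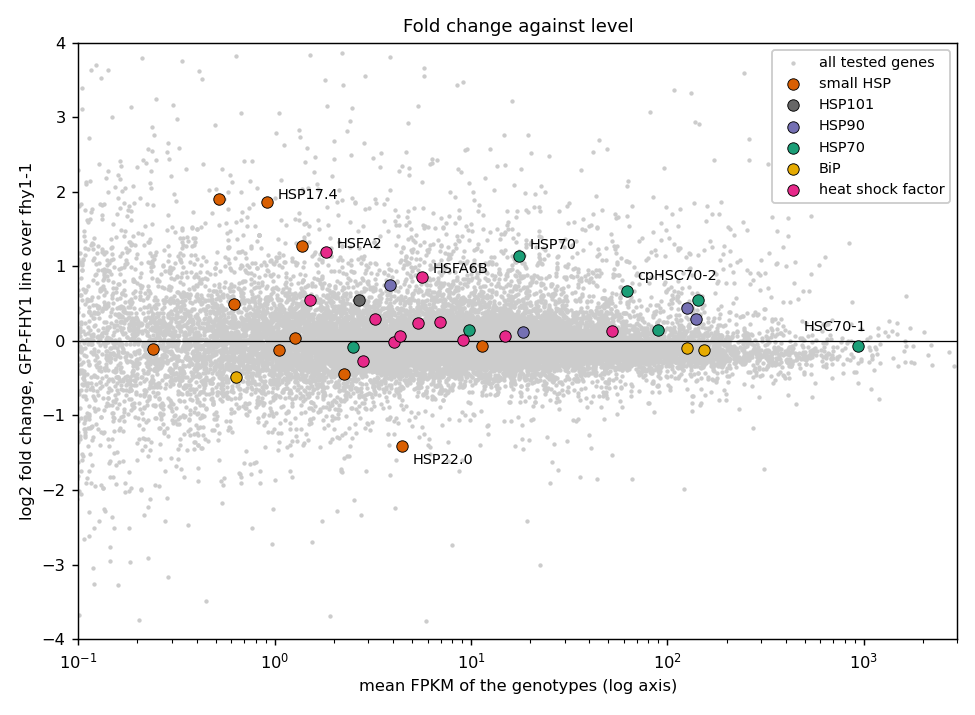
Log2 fold change of the GFP-FHY1 line over fhy1-1 against mean FPKM (log axis) for 22255 tested genes (grey; 1100 outside the axes are not drawn) and for the members by class (coloured). The spread of the grey points narrows as FPKM rises, HSP70 (1.14) and HSP22.0 (-1.41) stand far from 0, and HSC70-1, BIP1 and BIP2 lie close to it on the right.

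The promoters were searched for the letters that heat shock factors are known to bind. A heat shock element of 3 units was taken as GAA, TTC and GAA with 2 free bases between units, or its reverse complement, from 250 bases before to 50 bases after the RefSeq gene start. It occurred at 8 of 38 members, and at 0.481% of the 27443 protein-coding genes with such a window. A match is a description of these letters and not evidence of binding. The 8 were HSP17.4, AT1G53540, HSP70, AT3G09440, cpHSC70-2, HSFA2, HSFA7A and HSFA7B. The following sequences (TAIR10.1, read 5′ to 3′ on the gene's strand) are shown because 5 of these genes were called higher. Capitals mark the GAA and TTC units.
HSFA2 (chr2:11135528-11135556, plus strand): ttagtaacGAAgtTTCtgGAAcattgtct
HSP70 (chr3:3993846-3993874, minus strand): ttactcgtGAAcgTTCtcGAAagctcttt
AT3G09440 (chr3:2905894-2905922, minus strand): atcgaaccGAAcaTTCtcGAAccttttta
cpHSC70-2 (chr5:20303341-20303369, plus strand): caaccattTTCtaGAAccTTCcacttctt
AT1G53540 (chr1:19980238-19980266, plus strand): caacaccaGAAacTTCttGAAagcacctg
HSFA7A, distal (chr3:19264941-19264969, plus strand): ttacgaagTTCcaGAAgtTTCgactattc
HSFA7A, proximal (chr3:19264991-19265019, plus strand): aaaaccgtTTCcaGAAgtTTCtaatttct
HSFA7B (chr3:23399071-23399099, plus strand): agtataagTTCcgGAActTTCtaagaaga

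Counted from the annotated start, the element of HSFA2 began at -88, that of AT1G53540 at -53, that of HSFA7B at -157 and those of HSFA7A at -192 and -142. Those of HSP70, AT3G09440 and cpHSC70-2 began at 21, 34 and 16, within the RefSeq transcript. The loci of these genes in the authors' deposited table start further downstream, at 3993792, 2905729 and 20303414. Their elements lie before those deposited starts, so whether they are transcribed depends on the annotation. HSP17.4 had 2 elements, beginning at -99 and -18, and its upstream 250 bases (chr3:16984868-16985117, minus strand) are shown with both elements in capitals.
HSP17.4: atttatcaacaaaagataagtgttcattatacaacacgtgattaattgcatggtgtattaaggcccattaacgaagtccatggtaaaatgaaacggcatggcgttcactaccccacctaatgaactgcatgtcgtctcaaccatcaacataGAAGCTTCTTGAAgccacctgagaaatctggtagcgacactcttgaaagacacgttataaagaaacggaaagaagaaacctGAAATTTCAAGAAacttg

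By the authors' deposited table, 5 of the 8 members with the 3-unit element were called higher and none lower, with a median log2 fold change of 0.61. Of the 30 without it, 7 were called higher and 4 lower, with a median of 0.12. Among all 114 tested genes with the element, 25 (21.9%) were called higher and 11 (9.65%) lower. AT1G53540, HSFA7A and HSFA7B held the element and were not called, and HSP101 and HSP90.1 were called higher without it in this window. For HSP90.1 the window is placed at a RefSeq start, 21352557, inside its deposited locus, which begins upstream at 21352399. Its window therefore covers part of that locus. The count rests on the window, and another window was chosen after seeing the data. Within 500 bases before the first coding base, 16 members, HSP90.1 among them, held the element (1.2% of all genes). Of these 16, 7 were called higher and 2, HSP22.0 and HSC70-1, lower (median 0.20). Of the 22 without it there, 5 were called higher and 2 lower (median 0.12). Among all 292 tested genes with it there, 16.8% were called higher and 12.0% lower. The shorter GAANNTTC, which every 3-unit match contains, occurred at 12 members and 11.6% of all genes.

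The G-box CACGTG, a light-responsive motif, occurred at HSP17.4, HSP101, HSC70-1, BIP3 and HSFA2, 5 of 38 members, and at 7.68% of all genes. The endoplasmic reticulum stress element, CCAAT and CACG with 10 free bases between them, searched on both strands, occurred at BIP3 alone among the members and at 0.849% of all genes. Its 2 copies are shown because BIP3 alone among the BiP genes held it in this window. Capitals mark the fixed letters, which here stand in reverse complement, and the G-box of BIP3 overlaps the distal copy.
BIP3, distal (chr1:2932001-2932029, minus strand): tgtcaCGTGtctgcttgtgATTGGgtact
BIP3, proximal (chr1:2931923-2931951, minus strand): gcttaCGTGtcaagaagtgATTGGagagg

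**Figure D4:**
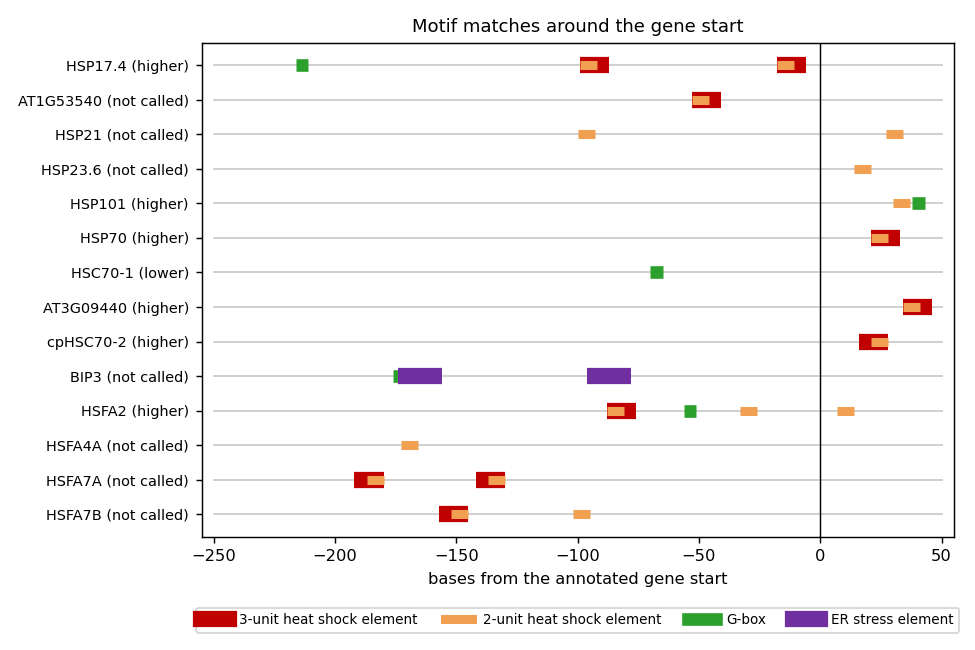
Motif matches from 250 bases before to 50 bases after the RefSeq gene start (0 on the axis) for the members with a match, with their call in brackets. The 3-unit heat shock elements lie before the start of HSP17.4, AT1G53540, HSFA2, HSFA7A and HSFA7B and after the start of HSP70, AT3G09440 and cpHSC70-2; orange marks the 2-unit letters.

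The remaining genes of the chaperone network were described by lists, to be read against 9.92% of all tested genes called higher and 12.9% lower. Of the 9 remaining heat shock factors, HSFA6A and HSFC1 were called higher and none lower by q in the authors' deposited table. HSFA6A was at 2.16 FPKM in the GFP-FHY1 line and 0.802 FPKM in fhy1-1, and HSFC1, whose locus overlaps another gene, at 9.81 and 6.64 FPKM. Over all 21 factors 5 were called higher and none lower, with a median log2 fold change of 0.07. Of 6 further small heat shock proteins, AT4G21870 (50.5 FPKM in the GFP-FHY1 line, 33.3 FPKM in fhy1-1) and AT2G19310 (23.2 and 16.6 FPKM) were called higher and none lower. Both were more abundant than any of the 11 small heat shock protein members.

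Among 9 other heat-responsive genes, q in the authors' deposited table called 2 higher and none lower, with a median log2 fold change of 0.47. DREB2A, the drought and heat regulator upstream of HSFA3, was at 8.37 FPKM in the GFP-FHY1 line and 3.59 FPKM in fhy1-1, 2.33-fold higher. MBF1C, a coactivator needed for heat tolerance, was at 44.2 FPKM in the GFP-FHY1 line and 29.2 FPKM in fhy1-1, and its locus overlaps another gene. Of 11 cytosolic co-chaperones, 5 were called higher and 2 lower (median 0.05). Both counts fell to 0 with a 10% replicate spread, a pseudocount or a 2-fold minimum, and to 2 and 1 with Bonferroni adjustment. ATJ3, called higher, lies at a mean of 100 FPKM or more, where 21.1% of all tested genes were called higher. HOP3, an adaptor between HSP70 and HSP90, was at 2.64 FPKM in the GFP-FHY1 line and 1.81 FPKM in fhy1-1. FES1A, an HSP70 partner, was at 9.37 and 6.81 FPKM, and the J-domain protein ATJ3 at 178.7 and 155.1 FPKM. AT4G02450, annotated as an HSP20-like chaperone, was at 73.6 FPKM in the GFP-FHY1 line and 88.8 FPKM in fhy1-1, and its locus overlaps another gene.

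In the endoplasmic reticulum folding and unfolded protein response list, 12 of 20 genes were called lower in the authors' deposited table and none higher, with a median log2 fold change of -0.14. Of all tested genes 12.9% were called lower, but 21.0% at a mean of 10 to 100 FPKM and 57.7% at 100 FPKM or more, ranges that hold PDIL1-2, PDIL1-1 and CRT1b. The disulfide isomerase PDIL1-2 was at 28.2 FPKM in the GFP-FHY1 line and 36.9 FPKM in fhy1-1, and PDIL1-1 at 117.4 and 143.1 FPKM. The calreticulin CRT1b was at 129.1 FPKM in the GFP-FHY1 line and 151.1 FPKM in fhy1-1, and the oxidase ERO2 at 8.46 and 10.5 FPKM. The decreases were at most 1.31-fold, by value 19 of 20 genes were lower, and the 12 lower calls became 7 with centring on the median gene, 5 with Bonferroni adjustment, 1 with a 10% replicate spread and 0 with a 20% spread, a pseudocount or a 2-fold minimum. Of 14 organelle chaperones and chaperonins, 1 was called higher and 5 lower (median -0.06). With a 10% replicate spread 0 were called in either direction. Of the genes called lower, HSP90.7 lies at 100 FPKM or more and HSP60-2 and mtHSC70-1 at 10 to 100 FPKM. In those ranges 57.7% and 21.0% of all tested genes were called lower. CLPB3, the chloroplast relative of HSP101, was at 17.0 FPKM in the GFP-FHY1 line and 13.7 FPKM in fhy1-1, and its locus overlaps another gene. HSP90.7, the HSP90 of the endoplasmic reticulum, was at 129.7 FPKM in the GFP-FHY1 line and 142.4 FPKM in fhy1-1. HSP60-2 was at 11.2 and 13.6 FPKM and mtHSC70-1 at 39.9 and 44.7 FPKM.

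**Figure D5:**
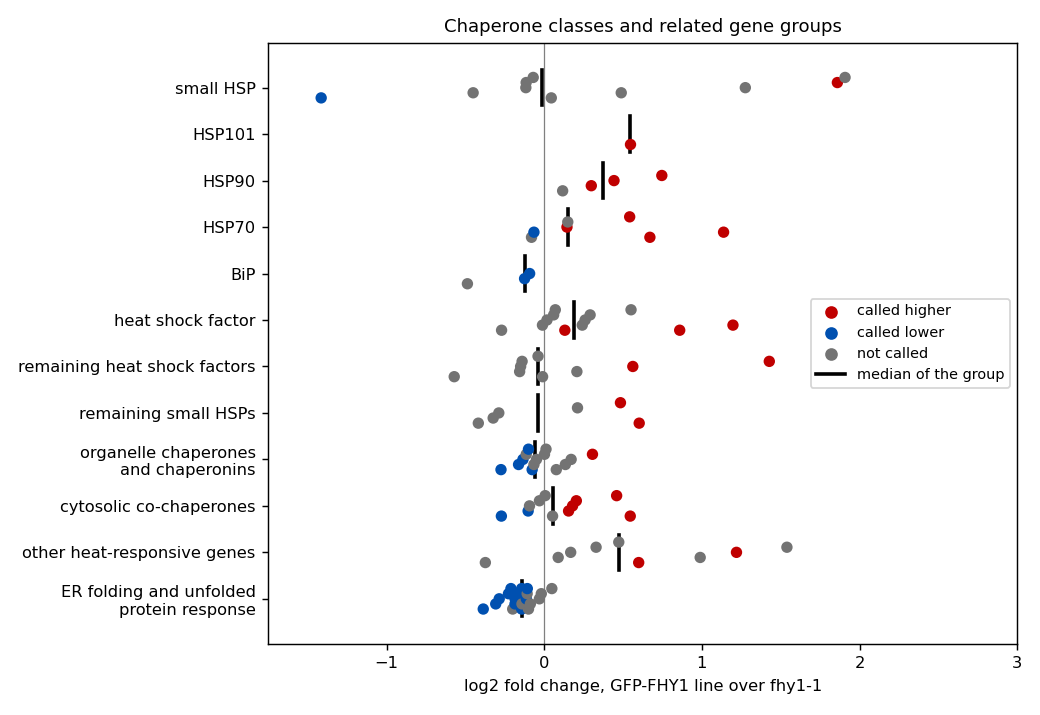
Log2 fold change of the GFP-FHY1 line over fhy1-1 for each gene (points, coloured by call at q below 0.05) by chaperone class and related list, with the median of each group as a black line. HSP90 and the other heat-responsive genes have medians of 0.37 and 0.47, and BiP and the endoplasmic reticulum list have medians of -0.12 and -0.14.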

How the data were processed

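The data are RNA-seq of Arabidopsis seedlings, 3 libraries for each of 2 genotypes. Bowtie and TAIR10 are named in the submitters' processing notes; versions, strand handling and filters were not stated there. The authors' deposited table has the column names of a Cuffdiff gene comparison. Its values are read as FPKM (fragments scaled to transcript length and library size), and the authors deposited 1 value per gene and genotype, combined over libraries. Low FPKM values showed no steps of whole reads, so depth per library is unknown and no counting interval is given.

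A gene was called when the authors' deposited q-value was below 0.05. Over tested genes, the authors' deposited p-value equals the normal tail of the deposited statistic to within 2.75e-06, and q its Benjamini-Hochberg adjustment to within 1.82e-06. Fold changes were recomputed from FPKM. The ratio of log2 fold change to statistic was taken as the implied error, and 95% intervals rest on it alone.

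The members and lists were chosen with earlier results of these data known, and names follow the RefSeq annotation of TAIR10.1. Named genes are all members, FHY1 and, per related list, up to 4 called genes with the largest fold at a mean of at least 1 FPKM. HSFA1E, HSFA9 and the genes that overlap HSP17.4, HSP101 and cpHSC70-2, or share sequence with a member, fall outside this rule. They were named after their values were seen. Promoter windows were read from TAIR10.1 at RefSeq gene starts, and protein sequences were not used here. Of the 27973 genes in both, 29.6% had the same lower coordinate in RefSeq and in the authors' deposited table. The alternatives are listed in the closing section. The retest was run on simulated data whose noise followed the implied error, so replicate spread was not examined. Calculations used Python 3.11.15, pandas 2.3.3 and scipy 1.17.1.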

Additional observations from a re-analysis of the deposited data

How the results depend on the processing

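Setting by setting, 12 members were called higher and 4 lower as reported. A 2-fold minimum left 3 and 1, a pseudocount of 1 with a log2 change of 0.58 left 6 and 1, and an added replicate spread left 8 and 1 at 10% and 1 and 1 at 20%. Centring on the median gene gave 13 and 2. The other settings tried (q below 0.01, Bonferroni, a minimum of 1 FPKM, overlapping loci left out) kept both counts within 1.5 times. Only centring can change the direction of a fold change, and no called member with both values above 0 changed direction there. All other settings keep the sign by construction, so they say nothing about direction. The median of the members was 0.14, with 0.13 for a pseudocount of 1 and 0.19 for centring. In the 6 related lists together, 12 genes were called higher and 19 lower. Here the 2-fold minimum left 2 and 0, Bonferroni 7 and 8, the pseudocount 4 and 0, a 10% spread 5 and 1, and a 20% spread 1 and 0, while centring left 10 lower. The 3-unit heat shock element was found at 8 members, at 3 in the 100 bases before the start and at 16 in the 500 bases before the first coding base, and the 2-unit one at 12, 4 and 21. The longest window, and a 2-unit element in either arrangement (16 members, 19.3% of all genes), were chosen after seeing the data. No paired analysis was possible because each genotype has a single combined value without replicate numbers, so no library was left out either. Protein features were not run. FPKM keeps no depth, so the precision of values under 1 FPKM is unknown.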
